A study of Medicago sativa with 3 samples.

Results

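Transcripts of alfalfa for abscisic acid (ABA) breakdown, perception and signalling, for dehydrins, for late embryogenesis abundant (LEA) proteins and for cold-acclimation proteins were followed here, and they numbered 106 among the 95646 assembled transcripts. They were chosen by words in the name of the best protein match (dehydrin, late embryogenesis or LEA, cold-acclimation, cold-regulated or cold-induced, abscisic, ABA-responsive, 9-cis-epoxycarotenoid), given that both the best protein and the best nucleotide match came from Medicago, soybean, pea, clover, chickpea or Lotus, as held for 52669 transcripts. The rule itself uses no expression values, though it was set with earlier results of these data known. The transcripts are given by the identifiers of the assembly without the ending _All, and CL marks a contig in a cluster of similar contigs.

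Each of the 3 libraries was sequenced from 1 bulk of equal leaf, stem and root RNA, taken after the sheep had been removed, over all plants of a population of Medicago sativa ssp. falcata. The intolerant grazed library came from MF200402, plants of the cultivar 'Hulunbeier' that recovered poorly from continuous sheep grazing. The tolerant grazed library came from MF200401, plants of the same cultivar that recovered rapidly. The tolerant ungrazed library came from MF200401 propagules in a separate fenced block whose shoots were cut back to a height like that of the grazed plants when grazing ended. Hence grazing and block cannot be told apart, no ungrazed intolerant plants were sampled, and with 1 library a group no test over replicates was possible. In bulks of whole plants, a smaller share of a tissue and less RNA per cell cannot be told apart either.

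ABA is the hormone of water deficit and dormancy. It is made from carotenoids by 9-cis-epoxycarotenoid dioxygenase and broken down by 8'-hydroxylases, which are cytochrome P450 enzymes. As worked out in Arabidopsis, receptors of the PYR and PYL kind that hold ABA block PP2C phosphatases, which frees SnRK2 kinases to activate bZIP transcription factors of the ABF and ABI5 kind. Dehydrins and LEA proteins are hydrophilic proteins that protect membranes and enzymes of drying or freezing cells, and in alfalfa several of them are known from cold acclimation and winter survival.

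Legume-matched transcripts took 19790915 fragments in intolerant grazed, 18213613 in tolerant grazed and 18234753 in tolerant ungrazed plants, which were 88.8%, 80.4% and 79.9% of all aligned fragments of these libraries. The 106 transcripts took 1.09%, 0.739% and 0.612% of all aligned fragments in the same order. Levels are given as FPKM, the fragments of a transcript scaled by its length and by the aligned fragments of the library. Ratios are log2 ratios of FPKM in which a count of 3 or fewer fragments was set to 3, a transcript was called higher or lower where the FPKM differed by 1 or more on the log2 scale, and the interval in parentheses is the exact 95% Clopper-Pearson interval on the fragments, which covers counting error only. A transcript of 1 kb with 3 fragments had 0.135 FPKM in intolerant grazed, 0.132 in tolerant grazed and 0.131 in tolerant ungrazed plants. The most abundant transcript of each library took 1.82%, 9.78% and 7.59% of its fragments in the same order. Rescaling by the median ratio of 48423 transcripts would lower every log2 ratio by 0.09 between the tolerant libraries and by 0.24 between the grazed libraries.

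Levels of the 106 transcripts differed widely. The 12 transcripts with the highest mean FPKM held 77.5% of the fragments of all 106 in intolerant grazed, 78.0% in tolerant grazed and 70.2% in tolerant ungrazed plants, and they coded for ABR17, BudCAR4, dehydrins, COR413, an abscisic stress ripening protein and a CORA-like protein. In contrast, the median of the mean FPKM was 2.89 over the 34 8'-hydroxylase transcripts and 5.02 over the 13 ABI5-like bZIP transcripts. Of the 106 transcripts, 97 had at least 30 fragments over the 3 libraries.

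**Figure D1:**
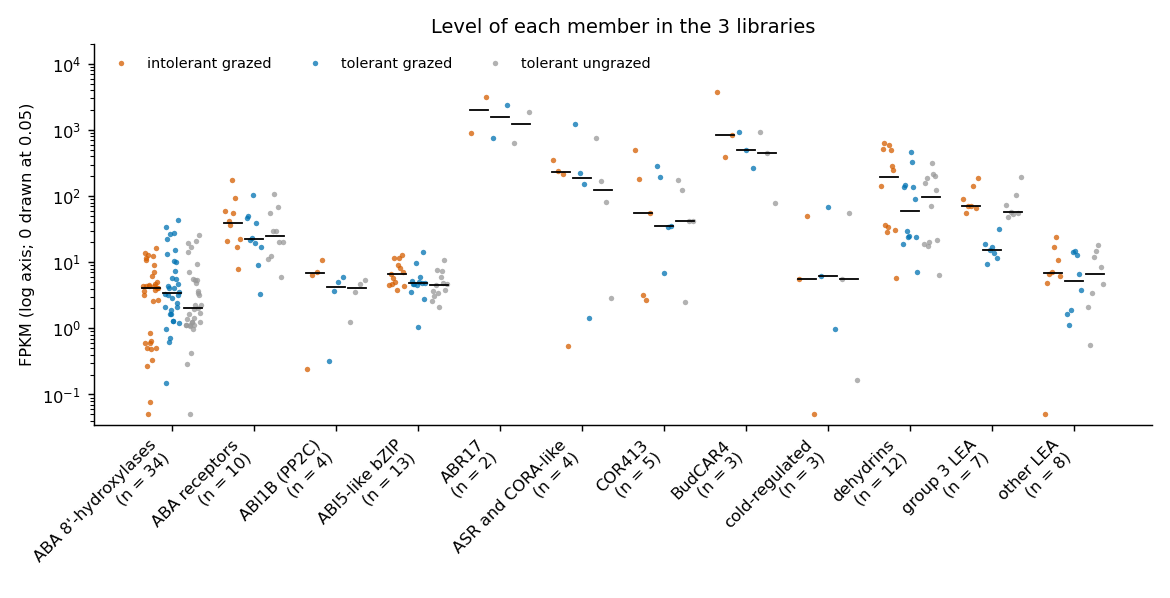
FPKM on a log axis of each transcript in the intolerant grazed (orange), tolerant grazed (blue) and tolerant ungrazed (grey) libraries, by family, with the number of transcripts under each name and a black line at the median. Values of 0 are drawn at 0.05, and Unigene42010, a short transcript that could not be placed in a family, is left out. The ABR17 transcript CL1123.Contig2 had the highest level in the tolerant grazed and tolerant ungrazed libraries and BudCAR4 CL6051.Contig1 in the intolerant grazed library, while most 8'-hydroxylases and transcription factors were under 10 FPKM.

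Compared with tolerant ungrazed plants, tolerant grazed plants had 11 of 104 transcripts higher and 10 lower, and 2 more had too few fragments in both libraries for a ratio. Among all legume-matched transcripts 14.2% were higher and 7.81% lower in this comparison, and among all transcripts of any match 14.5% were higher and 21.8% lower. The median log2 ratio was 0.20 over the 104 transcripts and 0.12 over the legume-matched ones. After rescaling by the median ratio the split was 9 higher and 13 lower. The shares among legume-matched transcripts were not recounted after rescaling, so this split has no background beside it. Of the 10 lower transcripts 7 matched 1 protein, a group 3 LEA protein, and without these 7 the count was 11 higher and 3 lower. Of the transcripts higher or lower, 9 and 10 had an interval that excluded 0.

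Compared with tolerant grazed plants, intolerant grazed plants had 27 of 106 transcripts higher and 21 lower, against 21.9% higher and 12.4% lower among the legume-matched transcripts and 25.3% higher and 18.4% lower among all transcripts. The median log2 ratio was 0.34 over the 106 transcripts and 0.28 over the legume-matched ones. The 2 comparisons share the tolerant grazed library, so their values are set side by side below and were not correlated. Leaf markers (Rubisco small subunits and chlorophyll a/b binding proteins, 13 transcripts) summed to 523882 fragments in intolerant grazed, 210618 in tolerant grazed and 196216 in tolerant ungrazed plants, and 7 of the 13 were higher in intolerant grazed than in tolerant grazed plants. The part of tissue makeup in the ratios below was not tested.

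**Figure D2:**
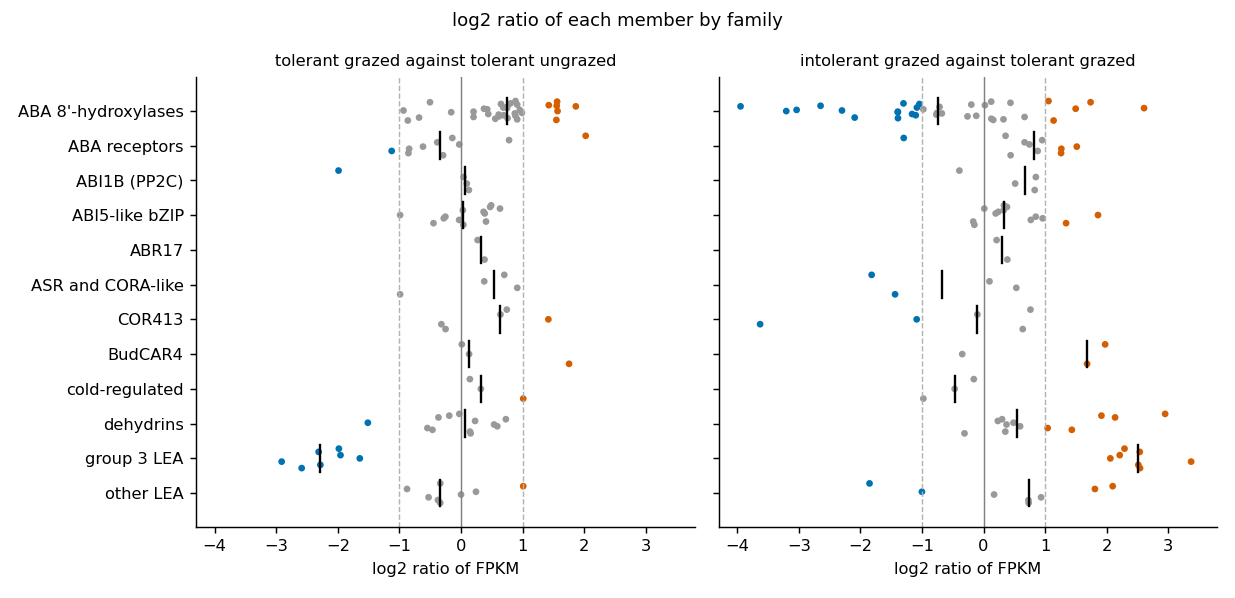
Log2 ratio of FPKM of each transcript by family for tolerant grazed against tolerant ungrazed (left) and intolerant grazed against tolerant grazed plants (right), with dashed lines at the threshold of 1, orange for higher, blue for lower, grey for neither and a black line at the median. All 7 group 3 LEA transcripts lay below the threshold on the left and above it on the right, while 8'-hydroxylases had medians of 0.75 on the left and -0.73 on the right. The unplaced Unigene42010 is left out.

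No transcript with the words 9-cis-epoxycarotenoid in its protein name passed the rule. The 7 legume-matched transcripts with the orthology term of this dioxygenase, the rate-limiting enzyme of ABA synthesis, carry other spellings or names. This list and the other lists by orthology term were made after the data were seen. Unigene3568, named nine-cis-epoxycarotenoid dioxygenase2 of pea, was the most abundant, at 26.3 FPKM in intolerant grazed, 12.4 in tolerant grazed and 47.2 in tolerant ungrazed plants. It was lower in tolerant grazed than in tolerant ungrazed plants, with a log2 ratio of -1.93 (-2.08 to -1.78), and higher in intolerant grazed than in tolerant grazed plants, with 1.09 (0.93 to 1.25). Unigene27973, with the same best match, stood at 13.7 FPKM in intolerant grazed, 7.33 in tolerant grazed and 29.1 in tolerant ungrazed plants. Its log2 ratio was -1.99 (-2.36 to -1.64) for tolerant grazed against tolerant ungrazed plants and 0.90 (0.51 to 1.31) for intolerant grazed against tolerant grazed plants. For both messages the tolerant ungrazed library was the highest and the tolerant grazed library the lowest. Over the list, 1 transcript was higher and 3 of 6 lower in tolerant grazed than in tolerant ungrazed plants, and 4 of 7 were higher in intolerant grazed than in tolerant grazed plants, beside 7.81% lower in the first comparison and 21.9% higher in the second among legume-matched transcripts. The 7 transcripts summed to 1628 fragments in intolerant grazed, 1168 in tolerant grazed and 2769 in tolerant ungrazed plants.

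ABA 8'-hydroxylase, which carries out the first step of ABA breakdown, was the largest family, with 34 transcripts. They summed to 5436 fragments in intolerant grazed, 9723 in tolerant grazed and 5888 in tolerant ungrazed plants, so that the tolerant grazed library was the highest and the other libraries were near each other. In tolerant grazed against tolerant ungrazed plants, 6 of 33 were higher (18.2%, against 14.2% of the legume-matched transcripts) and 0 lower, the median log2 ratio was 0.75, and 28 of the 33 ratios were above 0. With TPM in place of FPKM, which raises every ratio of this comparison by 0.11, 10 were higher and 0 lower. After rescaling by the median ratio, 6 were higher and 1 lower. The share among legume-matched transcripts was not recounted under these scalings. In intolerant grazed against tolerant grazed plants, 14 of 34 were lower (41.2%, against 12.4%) and 5 higher (14.7%, against 21.9%), and the median was -0.73. Of the 34 transcripts, 11 share 1 best match and are no independent evidence of one another. The log2 ratio of the sums over all 34 was 0.73 (0.69 to 0.78) between the tolerant libraries and -0.82 (-0.86 to -0.77) between the grazed libraries.

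The family was grouped by best protein match, and each group is named by the locus in the nucleotide matches of its transcripts. Most fragments fell on transcripts with the match MTR_5g025610 of Medicago truncatula, which had 11 transcripts that summed to 2970 fragments in intolerant grazed, 5504 in tolerant grazed and 3442 in tolerant ungrazed plants. Its most abundant transcript, Unigene34164, stood at 16.7 FPKM in intolerant grazed, 43.7 in tolerant grazed and 25.9 in tolerant ungrazed plants. The log2 ratio of Unigene34164 was 0.76 (0.61 to 0.90) in tolerant grazed against tolerant ungrazed plants, under the threshold, and -1.39 (-1.56 to -1.22) in intolerant grazed against tolerant grazed plants. All 11 ratios of this match were above 0 in the first comparison, from 0.44 to 1.55. The 1 past the threshold, Unigene34167, shares the protein match but has no locus in its nucleotide match. Of the 11 transcripts 4 were lower in the second comparison. The protein match scored 926 bits for Unigene10151 but only 60.8 bits for Unigene34165, Unigene34166 and Unigene34167. In the second comparison Unigene10151 had a log2 ratio of -1.08. The transcripts at 60.8 bits had 0.13, 0.32 and 0.16, the 3 ratios above 0 of this match. Unigene23507, at 135 bits, was called lower with -1.10.

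A second match, MTR_8g072260, had 4 transcripts with 2134, 3662 and 2125 fragments in intolerant grazed, tolerant grazed and tolerant ungrazed plants. Its contig CL2711.Contig1 stood at 13.7, 33.6 and 19.3 FPKM in the same order and was 2.46-fold lower in intolerant grazed than in tolerant grazed plants. CL2711.Contig3 of the same cluster stood at 11.5, 13.2 and 7.01 FPKM, and between the grazed libraries it gave a log2 ratio of -0.20 (-0.35 to -0.04), so that contigs of this cluster differed in their ratios. The protein match of CL2711.Contig3 scored 69.7 bits, against 939 bits for CL2711.Contig1, so its name rests on a weaker match. Contigs of 1 cluster share sequence, and the uniquely aligned fragments from which FPKM was made may be split between them.

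The furthest ratios belonged to a small set of weakly expressed transcripts whose best match is an 8'-hydroxylase 2-like protein of soybean. These 5 transcripts summed to 29 fragments in intolerant grazed, 297 in tolerant grazed and 98 in tolerant ungrazed plants. The log2 ratio of the sums was 1.61 (1.28 to 1.96) in tolerant grazed against tolerant ungrazed plants and -3.33 (-3.94 to -2.78) in intolerant grazed against tolerant grazed plants. CL9669.Contig2 stood at 0.266 FPKM in intolerant grazed, 4.10 in tolerant grazed and 1.13 in tolerant ungrazed plants, and it was 3.64-fold higher in tolerant grazed than in tolerant ungrazed plants and 15.4-fold lower in intolerant grazed than in tolerant grazed plants, where it had 6 fragments. Unigene19031 showed the same order of libraries, with 0.637, 5.87 and 1.98 FPKM, and so did CL9669.Contig1, with 0.508, 3.18 and 1.08 FPKM. Unigene16876 had 1 fragment in intolerant grazed, 25 in tolerant grazed and 13 in tolerant ungrazed plants. Between the grazed libraries this gave a log2 ratio of -3.04 with the count of 1 set to 3, and of -4.62 with the counts as they were, with a counting interval from -9.98 to -2.01. The fifth, CL9669.Contig3, had 5 fragments in tolerant grazed plants and 0 in the other libraries.

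Other 8'-hydroxylases went different ways. MTR_8g076940, with 4 transcripts, summed to 16 fragments in intolerant grazed, 69 in tolerant grazed and 114 in tolerant ungrazed plants. Its log2 ratio of sums was -0.71 (-1.17 to -0.27) between the tolerant libraries and -2.09 (-2.97 to -1.29) between the grazed libraries, and all 4 transcripts were called lower in intolerant grazed than in tolerant grazed plants. For Unigene19757, with 3 against 8 fragments, and Unigene22429, with 2 against 8, the interval included 0. MTR_1g019410, with 3 transcripts, summed to 146, 118 and 44 fragments in intolerant grazed, tolerant grazed and tolerant ungrazed plants, with 1.43 (0.92 to 1.97) in tolerant grazed against tolerant ungrazed plants and 0.33 (-0.03 to 0.69) in intolerant grazed against tolerant grazed plants. For MTR_4g086130, the 3 transcripts summed to 95, 47 and 33 fragments in the same order of libraries, with 0.52 (-0.15 to 1.21) and 1.04 (0.52 to 1.57). In both of these matches, unlike the abundant ones, intolerant grazed plants had the most fragments. The 5 transcripts called higher in intolerant grazed than in tolerant grazed plants, CL11150.Contig1, CL13061.Contig1, Unigene10765, Unigene11322 and Unigene45683, were all under 5 FPKM in each library.

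**Figure D3:**
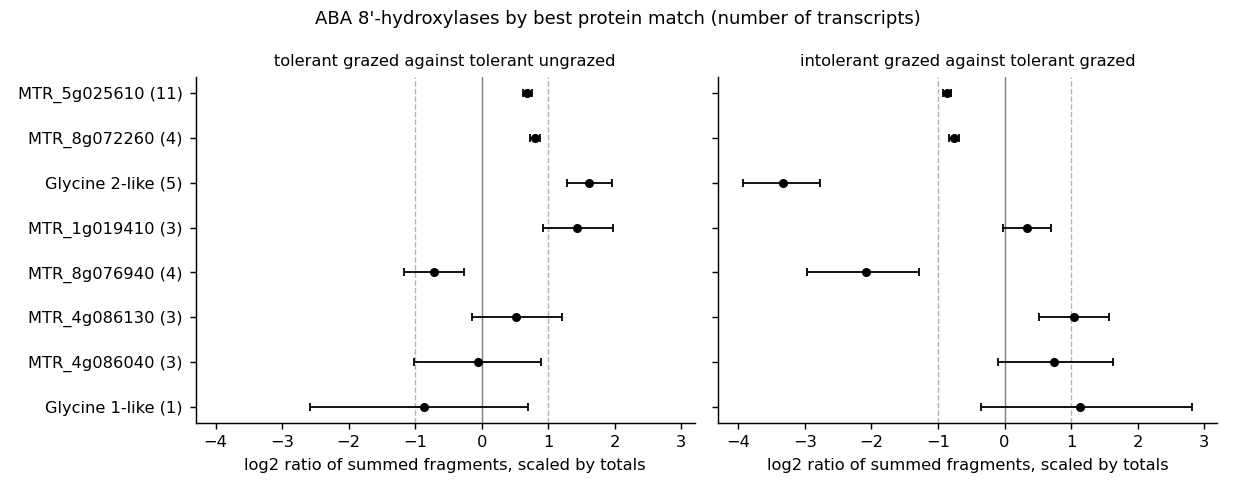
Log2 ratio of the summed fragments of 8'-hydroxylase transcripts by best protein match, with 95% counting intervals, for tolerant grazed against tolerant ungrazed (left) and intolerant grazed against tolerant grazed plants (right). The number of transcripts stands in parentheses, dashed lines mark the threshold, and matches run from the most fragments at the top to the fewest. The 2 most abundant matches lay at 0.69 and 0.80 on the left and at -0.87 and -0.76 on the right, and the soybean 2-like match lay furthest from 0 on the right.

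A further 6 legume-matched transcripts carry the orthology term of ABA 8'-hydroxylase under other protein names. The most abundant of them, Unigene12318, named a cytochrome P450 monooxygenase, stood at 10.5 FPKM in intolerant grazed, 38.7 in tolerant grazed and 9.34 in tolerant ungrazed plants. It was thus higher in tolerant grazed than in tolerant ungrazed plants, with a log2 ratio of 2.05 (1.89 to 2.22), and lower in intolerant grazed than in tolerant grazed plants, with -1.88 (-2.04 to -1.72).

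Among the 10 transcripts of ABA receptors, 1 was higher and 1 lower in tolerant grazed than in tolerant ungrazed plants. These were 10% each, against 14.2% higher and 7.81% lower among legume-matched transcripts. The median log2 ratio of the receptors was -0.34. In intolerant grazed against tolerant grazed plants 3 were higher and 1 lower, 9 of 10 ratios were above 0, and the median was 0.81. Of the legume-matched transcripts 21.9% were higher and 12.4% lower there, with a median of 0.28, so that the counts of called receptors were near this background. The most abundant receptor, the PYL4 transcript Unigene13118, stood at 177 FPKM in intolerant grazed, 106 in tolerant grazed and 108 in tolerant ungrazed plants, with log2 ratios of -0.03 (-0.11 to 0.05) between the tolerant libraries and 0.75 (0.67 to 0.82) between the grazed libraries, neither past the threshold. The PYR1 transcript Unigene14978 (MTR_5g030500) stood at 56.0, 19.6 and 30.02 FPKM and was 2.86-fold higher in intolerant grazed than in tolerant grazed plants. For PYL9 (Unigene1958) the values were 92.8, 38.6 and 69.3 FPKM, and it was 2.40-fold higher in intolerant grazed than in tolerant grazed plants. These receptors had their lowest level in the tolerant grazed library.

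The same order of libraries held for PYL2 (Unigene3973), with 7.92 FPKM in intolerant grazed, 3.31 in tolerant grazed and 5.97 in tolerant ungrazed plants, which was 2.39-fold higher in intolerant grazed than in tolerant grazed plants. Of the PYL6 transcripts, Unigene24355 stood at 16.8, 9.15 and 20.0 FPKM and was 2.18-fold lower in tolerant grazed than in tolerant ungrazed plants, with a log2 ratio of -1.13 (-1.33 to -0.92). CL5703.Contig2, also PYL6, stood at 36.5, 23.0 and 30.1 FPKM, and PYL8 (Unigene471) at 22.8, 16.8 and 20.6 FPKM. Neither passed the threshold in either comparison.

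A further 3 contigs of 1 cluster all matched PYL4. The receptor ratio furthest from 0 was that of CL2561.Contig1, which stood at 59.0 FPKM in intolerant grazed, 46.0 in tolerant grazed and 11.3 in tolerant ungrazed plants and was 4.07-fold higher in tolerant grazed than in tolerant ungrazed plants. CL2561.Contig2 stood at 20.6, 50.7 and 55.9 FPKM and was 2.46-fold lower in intolerant grazed than in tolerant grazed plants. CL2561.Contig4, at 41.5, 21.4 and 12.5 FPKM, passed the threshold in neither comparison. Summed over these contigs there were 2332 fragments in intolerant grazed, 2286 in tolerant grazed and 1484 in tolerant ungrazed plants. The log2 ratio of the sums was 0.63 (0.54 to 0.73) between the tolerant libraries and 0.05 (-0.03 to 0.14) between the grazed libraries, so the calls of the single contigs were not seen in their sum.

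**Figure D4:**
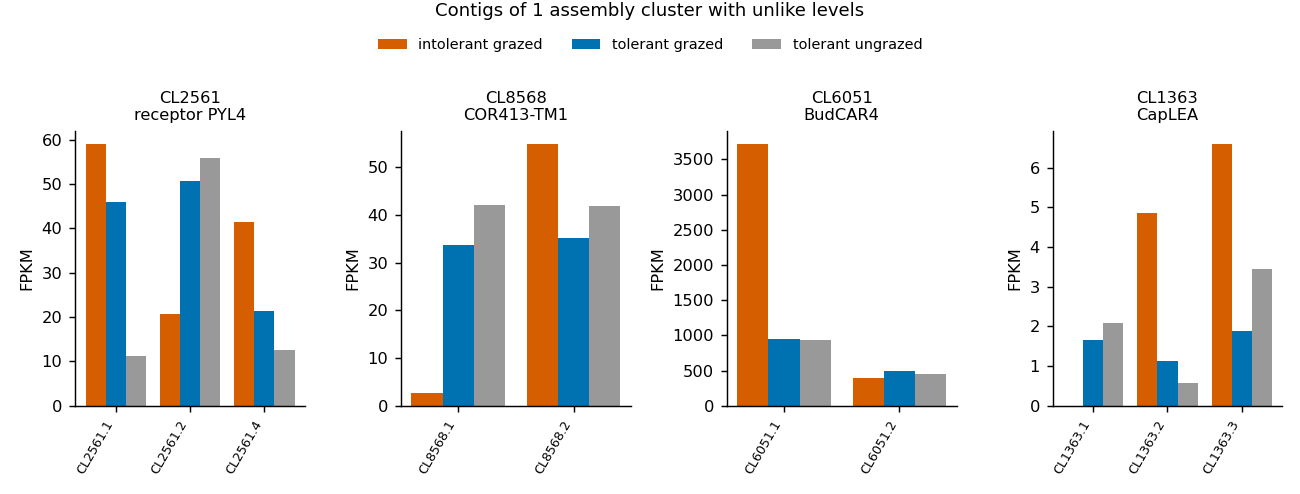
FPKM of contigs of 4 assembly clusters in the intolerant grazed (orange), tolerant grazed (blue) and tolerant ungrazed (grey) libraries, with no error bars since each bar is 1 library. In the PYL4, COR413-TM1, BudCAR4 and CapLEA clusters, contigs of 1 cluster differed in which library was highest, as for CL8568.Contig1 with 2.72, 33.7 and 42.0 FPKM beside CL8568.Contig2 with 54.8, 35.2 and 41.9 FPKM.

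The phosphatase transcripts named Abscisic insensitive 1B, a PP2C by their orthology term, were 4 in number. Unigene11543 (MTR_3g104710) stood at 10.7 FPKM in intolerant grazed, 5.99 in tolerant grazed and 5.48 in tolerant ungrazed plants, with log2 ratios of 0.13 (-0.10 to 0.35) between the tolerant libraries and 0.83 (0.64 to 1.03) between the grazed libraries. CL7359.Contig2, at 6.52, 3.62 and 3.51 FPKM, had 0.04 (-0.26 to 0.35) and 0.85 (0.59 to 1.12), and CL7359.Contig3, at 7.10, 4.97 and 4.66 FPKM, had 0.09 (-0.18 to 0.37) and 0.51 (0.27 to 0.76). None of these 3 passed the threshold. The only call was the lower level of CL7359.Contig1 in tolerant grazed than in tolerant ungrazed plants, on 4 against 16 fragments.

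The 13 bZIP transcripts of the ABI5-like kind, which bind ABA-responsive elements in promoters, were low in all libraries and differed little. In tolerant grazed against tolerant ungrazed plants 0 of 13 were higher or lower, and the ratios ran from -0.99 to 0.63. In intolerant grazed against tolerant grazed plants 2 were higher (15.4%, against 21.9%) and 0 lower, with a median of 0.33 against 0.28 over legume-matched transcripts. Unigene3243 (MTR_1g098590) stood at 7.05 FPKM in intolerant grazed, 2.78 in tolerant grazed and 3.79 in tolerant ungrazed plants, 2.53-fold higher in intolerant grazed than in tolerant grazed plants. CL4692.Contig2, the other transcript called higher, had 25 fragments in intolerant grazed and 7 in tolerant grazed plants. The most abundant, Unigene11501 (MTR_3g101780), stood at 12.9, 14.5 and 10.9 FPKM. Both contigs of MTR_4g085910 were just under the threshold between the grazed libraries, CL6800.Contig1 at 0.85 (0.59 to 1.11) and CL6800.Contig2 at 0.96 (0.72 to 1.20). The unplaced Unigene42010, named abscisic acid-insensitive with no number, had 11 fragments in intolerant grazed plants and 1 in each tolerant library.

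Proteins named for their response to ABA were among the most abundant of the 106 transcripts. ABR17, a protein of the pathogenesis-related class known from pea, stood at 3176 FPKM in intolerant grazed, 2427 in tolerant grazed and 1862 in tolerant ungrazed plants in CL1123.Contig2, the most abundant of the 106 transcripts on average. CL1123.Contig1 stood at 888, 767 and 636 FPKM. In both comparisons the log2 ratios of both contigs were between 0.21 and 0.39, and those of intolerant grazed against tolerant grazed plants for CL1123.Contig1, 0.21 (0.16 to 0.26), were within the shift of 0.24 from rescaling. The abscisic stress ripening transcripts, small hydrophilic proteins first described in tomato, stood at 238, 223 and 171 FPKM for Unigene25195 and at 219, 151 and 80.4 FPKM for Unigene40379, neither past the threshold. The weakly expressed Unigene48155 of the same kind had 4 fragments in intolerant grazed, 11 in tolerant grazed and 22 in tolerant ungrazed plants and was called lower in intolerant grazed than in tolerant grazed plants, at -1.44 (-3.54 to 0.32), with an interval that included 0.

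Unigene20528 was the 1 transcript of the 12 most abundant that passed the threshold as lower in intolerant grazed than in tolerant grazed plants. Its best match is an environmental stress-inducible protein of alfalfa that is like the cold- and drought-regulated protein CORA, and other names of the same match carry the word abscisic. It stood at 354 FPKM in intolerant grazed, 1246 in tolerant grazed and 765 in tolerant ungrazed plants. The tolerant grazed library was the highest, with a log2 ratio of 0.70 (0.67 to 0.74) against tolerant ungrazed plants, and the intolerant grazed library was 3.52-fold lower than the tolerant grazed library. The protein match of Unigene20528 scored only 60.5 bits, so its name rests on a weak match.

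COR413 proteins are membrane proteins of cold-treated plants, of the plasma membrane (PM) or of thylakoids (TM). The PM1 transcript CL2200.Contig1 (MTR_4g068510) stood at 490 FPKM in intolerant grazed, 289 in tolerant grazed and 173 in tolerant ungrazed plants, with log2 ratios of 0.74 (0.69 to 0.80) and 0.76 (0.72 to 0.80) in the 2 comparisons. CL2200.Contig2 stood at 182, 195 and 125 FPKM. CL6247.Contig1, at 3.204, 6.80 and 2.54 FPKM, was 2.67-fold higher in tolerant grazed than in tolerant ungrazed plants and 2.12-fold lower in intolerant grazed than in tolerant grazed plants. Summed with CL6247.Contig2 of its cluster, named cold-regulated protein, there were 122, 171 and 119 fragments. The log2 ratios of this sum were 0.53 (0.19 to 0.88) and -0.46 (-0.81 to -0.12), neither past the threshold. The TM1 contig CL8568.Contig1 (MTR_8g088110) stood at 2.72 FPKM in intolerant grazed, 33.7 in tolerant grazed and 42.0 in tolerant ungrazed plants and was 12.4-fold lower in intolerant grazed than in tolerant grazed plants. Its neighbour CL8568.Contig2 stood at 54.8, 35.2 and 41.9 FPKM, and the sum of both contigs, with 1140, 1376 and 1688 fragments, had a log2 ratio of -0.25 (-0.36 to -0.13) between the grazed libraries. The 12.4-fold difference was thus a matter of 1 contig of the cluster.

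BudCAR4 transcripts encode a small cold-acclimation responsive protein of alfalfa, and 2 of the 3 were higher in intolerant grazed than in tolerant grazed plants. CL6051.Contig1 stood at 3716 FPKM in intolerant grazed, 945 in tolerant grazed and 936 in tolerant ungrazed plants, 3.93-fold higher in intolerant grazed than in tolerant grazed plants and with a log2 ratio of 0.01 (-0.03 to 0.06) between the tolerant libraries. CL7746.Contig2, whose best nucleotide match is the alfalfa cold-acclimation gene cas15B, stood at 850, 265 and 78.4 FPKM. It was 3.38-fold higher in tolerant grazed than in tolerant ungrazed plants and 3.21-fold higher in intolerant grazed than in tolerant grazed plants. In contrast, CL6051.Contig2 stood at 390, 495 and 452 FPKM. Summed over the 3 transcripts, intolerant grazed plants had 41594, tolerant grazed plants 14349 and tolerant ungrazed plants 12058 fragments, a 2.95-fold higher level in intolerant grazed than in tolerant grazed plants.

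Among the 3 remaining cold-regulated transcripts, Unigene26858 stood at 49.6, 68.7 and 54.9 FPKM in intolerant grazed, tolerant grazed and tolerant ungrazed plants and CL6247.Contig2 at 5.59, 6.24 and 5.64 FPKM, and neither passed the threshold. Unigene33709 had 0, 6 and 1 fragments, which allows no firm statement.

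The 12 dehydrin transcripts were compared next. In tolerant grazed against tolerant ungrazed plants, 0 were higher and 1 lower (8.33%, against 7.81% of the legume-matched transcripts). Of the ratios, 6 lay above and 6 below 0, with a median of 0.06 that was -0.03 after rescaling. In intolerant grazed against tolerant grazed plants, 5 of 12 were higher (41.7%, against 21.9% of the legume-matched transcripts) and 0 lower, 11 of 12 ratios were above 0, and the median was 0.54. Of the 5 called higher, 3 are contigs of cluster CL3148 and are no independent evidence of one another. The sums over the 12 transcripts were 62468 fragments in intolerant grazed, 33770 in tolerant grazed and 28513 in tolerant ungrazed plants.

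The 5 dehydrins higher in intolerant grazed plants all match alfalfa dehydrins of the Y2K4 or cold-inducible kind. CL3148.Contig3 stood at 639 FPKM in intolerant grazed, 145 in tolerant grazed and 187 in tolerant ungrazed plants, 4.40-fold higher in intolerant grazed than in tolerant grazed plants. CL3148.Contig2 stood at 520, 138 and 157 FPKM, a 3.77-fold difference, and CL3148.Contig1 at 145, 18.7 and 19.1 FPKM, a 7.73-fold difference between the same libraries. The tolerant libraries were thus close to each other for these contigs. The log2 ratios of tolerant grazed against tolerant ungrazed plants were -0.37 (-0.45 to -0.28), -0.19 (-0.27 to -0.11) and -0.03 (-0.26 to 0.21) for CL3148.Contig3, CL3148.Contig2 and CL3148.Contig1. The cold-inducible dehydrin Unigene17516 stood at 246, 91.0 and 125 FPKM, 2.70-fold higher in intolerant grazed than in tolerant grazed plants. Unigene17515, at 282, 137 and 200 FPKM, was 2.06-fold higher, and this call was lost after rescaling, where 4 of the 12 remained higher. The protein match scored 286.6 bits for CL3148.Contig1. It scored 110.2 for Unigene17516, 101.7 for CL3148.Contig3, 80.5 for CL3148.Contig2 and 60.8 for Unigene17515, so these names rest on weaker matches.

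Other dehydrins, some of them also of the Y2K4 kind, passed no threshold between the grazed libraries. Of the 5 transcripts matched to Y2K4 variant G3, 2 were higher in intolerant grazed plants. CL3148.Contig4, also of this match, stood at 36.3 FPKM in intolerant grazed, 29.4 in tolerant grazed and 17.8 in tolerant ungrazed plants. Unigene30135 of this match stood at 30.4, 23.8 and 21.5 FPKM. Unigene30136, at 5.72, 7.08 and 6.36 FPKM, had the 1 dehydrin ratio below 0 between the grazed libraries, -0.31 (-0.83 to 0.21). CL3148.Contig5 stood at 28.2, 24.0 and 20.5 FPKM. The transcripts matched to dehydrin b of white clover (MTR_3g117290) were abundant, CL7556.Contig1 at 600, 463 and 319 FPKM and CL7556.Contig3 at 491, 325 and 216 FPKM. Their log2 ratios were 0.54 (0.50 to 0.58) and 0.59 (0.55 to 0.63) between the tolerant libraries, and 0.37 (0.34 to 0.41) and 0.59 (0.56 to 0.63) between the grazed libraries. The 1 dehydrin that was lower in tolerant grazed than in tolerant ungrazed plants, CL7163.Contig2, stood at 34.4, 24.6 and 70.1 FPKM, 2.85-fold lower. Its protein match scored only 53.5 bits.

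**Figure D5:**
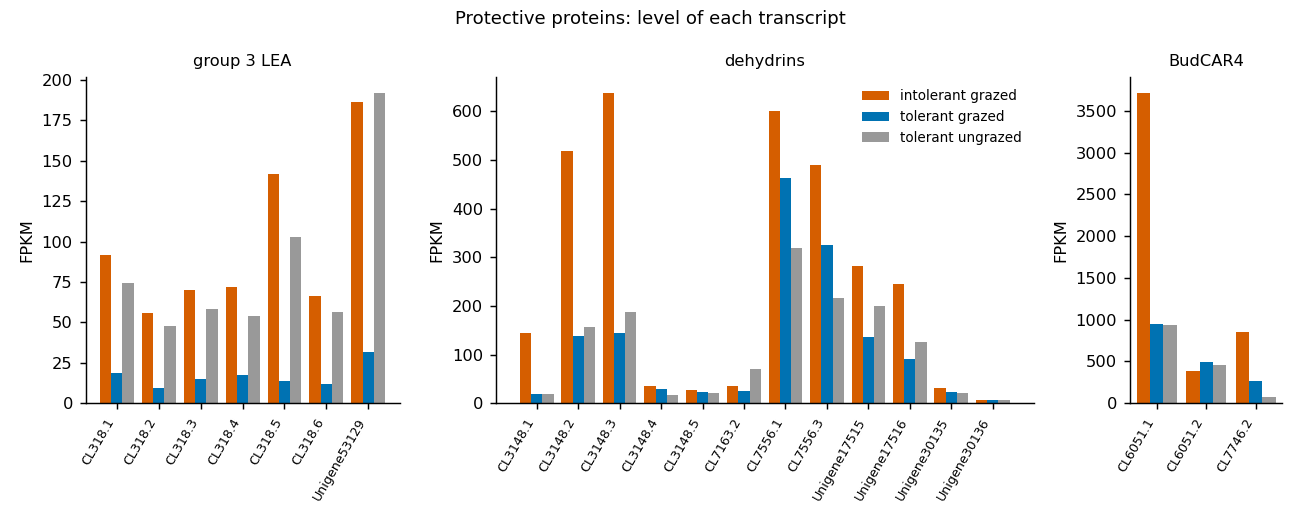
FPKM of the group 3 LEA, dehydrin and BudCAR4 transcripts in the intolerant grazed (orange), tolerant grazed (blue) and tolerant ungrazed (grey) libraries, with no error bars since each bar is 1 library (CL318.1 stands for CL318.Contig1). All 7 group 3 LEA transcripts were lowest in tolerant grazed plants, while CL3148.Contig1 to CL3148.Contig3 and CL6051.Contig1 were highest in intolerant grazed plants.

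Group 3 LEA proteins are known from desiccating seeds and stressed vegetative tissue. Its 7 transcripts, 6 contigs of cluster CL318 and the short Unigene53129, all matched 1 alfalfa protein. They summed to 12815 fragments in intolerant grazed, 2381 in tolerant grazed and 10819 in tolerant ungrazed plants. All 7 were lower in tolerant grazed than in tolerant ungrazed plants, by log2 ratios from -2.91 to -1.64, and all 7 were higher in intolerant grazed than in tolerant grazed plants, by 2.06 to 3.37. For the sums this was 4.51-fold lower in tolerant grazed than in tolerant ungrazed plants, with a log2 ratio of -2.17 (-2.24 to -2.11), and 5.47-fold higher in intolerant grazed than in tolerant grazed plants, with 2.45 (2.39 to 2.51).

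CL318.Contig1, the contig with the most fragments, stood at 91.9 FPKM in intolerant grazed, 18.8 in tolerant grazed and 74.3 in tolerant ungrazed plants. CL318.Contig5 had the largest differences, with 142, 13.7 and 103 FPKM, 7.53-fold lower in tolerant grazed than in tolerant ungrazed plants and 10.4-fold higher in intolerant grazed than in tolerant grazed plants. Unigene53129 stood at 186, 32.0 and 192 FPKM. For each of these the tolerant grazed library stood apart from the others. Since the 7 transcripts share a best match, they are no independent evidence of one another. The protein match scored 362.5 bits for CL318.Contig1. It scored only 60.1 for CL318.Contig5, 62 for Unigene53129, 62.4 for CL318.Contig4 and 85.9 for CL318.Contig6, so these names rest on weaker matches. The calls of all 7 held under rescaling, under scaling by legume-matched fragments and with TPM, as each ratio lay further past the threshold than these shifts.

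The other 8 LEA transcripts did not move together. The Lea5 transcript Unigene15254 (MTR_4g120040) stood at 24.4 FPKM in intolerant grazed, 12.8 in tolerant grazed and 18.4 in tolerant ungrazed plants, with log2 ratios of -0.53 (-0.80 to -0.25) between the tolerant libraries and 0.93 (0.67 to 1.20) between the grazed libraries. The D-34 transcript CL8351.Contig3 (MTR_3g034660) stood at 16.9, 15.0 and 15.0 FPKM, and CL8351.Contig2 of the same cluster, at 7.21, 14.4 and 12.2 FPKM, was 2.00-fold lower in intolerant grazed than in tolerant grazed plants. Of the CapLEA contigs, named after chickpea proteins, CL1363.Contig2 had 59, 14 and 7 fragments and CL1363.Contig3 had 69, 20 and 37 fragments in intolerant grazed, tolerant grazed and tolerant ungrazed plants. Both were higher in intolerant grazed than in tolerant grazed plants, 4.28-fold and 3.51-fold. CL1363.Contig2 was also called higher in tolerant grazed than in tolerant ungrazed plants, with a log2 ratio of 1.01 (-0.39 to 2.56) whose interval included 0. CL1363.Contig1 had 0, 11 and 14 fragments. With the count of 0 set to the floor of 3, it was 3.61-fold lower in intolerant grazed than in tolerant grazed plants. Its counting interval on the log2 scale reached up to -1.30 and had no lower end.

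Because LEA proteins are known from seeds, markers of seed were set beside them. The 7 seed transcripts (legumin, vicilin and oleosin) summed to 743 fragments in intolerant grazed, 124 in tolerant grazed and 85 in tolerant ungrazed plants. A legumin B transcript, Unigene39532, had 398, 2 and 0 of these fragments. In intolerant grazed against tolerant grazed plants 4 of the 7 were higher (57.1%, against 21.9% of the legume-matched transcripts). The legumins CL13204.Contig2, with 0, 6 and 2 fragments, and Unigene13978, with 10, 16 and 5, went the other way. The oleosin Unigene4129 had 123, 96 and 75 fragments. The part of seed tissue in the dehydrin and LEA levels was not tested. Of the other tissues, 43 nodulin transcripts summed to 21653, 20907 and 39429 fragments in intolerant grazed, tolerant grazed and tolerant ungrazed plants, and no leghemoglobin was among them. The 95 transcripts listed for lignified stem were those named cinnamyl alcohol dehydrogenase or cellulose synthase. They summed to 46400, 53116 and 44996 fragments in the same order, and whether these names mark stem tissue here was not tested. In tolerant grazed against tolerant ungrazed plants 12 of 42 nodulins were higher (28.6%, against 14.2% of legume-matched transcripts) and 3 lower (7.14%, against 7.81%). The summed nodulin fragments went the other way, with a log2 ratio of -0.90 (-0.93 to -0.88). In intolerant grazed against tolerant grazed plants 10 of 43 nodulins were higher (23.3%, against 21.9%) and 5 lower (11.6%, against 12.4%).

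Other genes of the pathway were counted by word lists over legume-matched transcripts that are not among the 106. For carotenoid precursors of ABA, from phytoene synthase to zeaxanthin epoxidase, 4 of 34 were higher and 3 lower in tolerant grazed than in tolerant ungrazed plants, and 8 of 35 were higher and 4 lower in intolerant grazed than in tolerant grazed plants. For ABA aldehyde oxidation the counts were 3 higher and 1 lower of 34 and 8 higher and 3 lower of 34. For other PP2C phosphatases they were 2 higher and 2 lower of 57 and 11 higher and 3 lower of 59. This list took every other transcript named protein phosphatase 2C, whether or not it acts in ABA signalling. Some of these carry another orthology term, such as protein kinase A. The shares of higher transcripts in these lists ran from 3.51% to 11.8% in the first comparison and from 18.6% to 23.5% in the second, near or below those of the legume-matched transcripts. Those of lower transcripts ran from 2.94% to 8.82% in the first comparison, against 7.81%, and from 5.08% to 11.4% in the second, against 12.4%.

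SnRK2 kinases and related SNF1-type proteins numbered 26, with 3 higher (12%, against 14.2%) and 4 lower (16.0%, against 7.81%) of 25 in tolerant grazed against tolerant ungrazed plants and 5 higher (19.2%, against 21.9%) and 0 lower in intolerant grazed against tolerant grazed plants. The list was dominated by Unigene18777, a regulatory gamma subunit of an SNF1-related kinase rather than an SnRK2 enzyme, at 276 FPKM in intolerant grazed, 102 in tolerant grazed and 318 in tolerant ungrazed plants. It was 3.11-fold lower in tolerant grazed than in tolerant ungrazed plants and 2.70-fold higher in intolerant grazed than in tolerant grazed plants. By orthology term, 23 transcripts were SnRK2 enzymes, of which 0 were higher or lower in tolerant grazed than in tolerant ungrazed plants. In intolerant grazed against tolerant grazed plants 3 were higher (13.0%, against 21.9% of the legume-matched transcripts) and 0 lower.

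Dehydration-responsive genes outside the ABA names were HVA22, RD22, early-responsive to dehydration and dehydration-responsive element-binding proteins, and desiccation proteins. The last held 5 Lea14-like transcripts that do not carry the words of the choice. In tolerant grazed against tolerant ungrazed plants 14 of 61 were higher (23.0%, against 14.2%) and 1 lower (1.64%, against 7.81%). The median log2 ratio there was 0.51. In intolerant grazed against tolerant grazed plants 14 of 63 were higher (22.2%, against 21.9%) and 3 lower (4.76%, against 12.4%). The dehydration-responsive element-binding protein 1F transcript CL13494.Contig1 stood at 7.97 FPKM in intolerant grazed, 5.54 in tolerant grazed and 0.592 in tolerant ungrazed plants, 9.36-fold higher in tolerant grazed than in tolerant ungrazed plants on 65 against 7 fragments. The RD22 transcript CL2626.Contig1, known as an ABA-responsive gene of drying Arabidopsis, stood at 15.0, 1.88 and 1.75 FPKM and was higher in intolerant grazed than in tolerant grazed plants on 126 against 16 fragments, with an interval on the log2 scale from 2.24 to 3.85. Seed maturation transcripts were 8. In tolerant grazed against tolerant ungrazed plants 2 were higher (25%, against 14.2%) and 0 lower. In intolerant grazed against tolerant grazed plants 2 were higher (25%, against 21.9%) and 1 lower (12.5%, against 12.4%).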

How the data were processed

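Leaf, stem and root RNA bulks of 3 groups were sequenced on an Illumina instrument as 3 libraries, 1 a group, assigned by GEO's labels. According to the methods and the notes with the table, the authors assembled the reads of all libraries de novo with Trinity and clustered the transcripts with TGICL. For each transcript and library, the deposited count is that of fragments that SOAP aligned uniquely, without normalization. The authors also deposited FPKM per transcript, which followed from counts, lengths and totals to within 5e-05. The deposited transcript length (other) and the score of the best match in bits were read as given. Tool versions are not given in the sources used here. The number of value columns not used was 0.

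Here the log2 ratio of fragments scaled by totals, equal to that of FPKM, was computed with counts of 3 or fewer set to 3, and no ratio was given where both were at or under 3. With 1 library a group no test over replicates and no p-value was possible, and edgeR was not run. The 106 transcripts, the families and the lists were chosen with earlier results of these data known. Named by rule were the 12 with the highest mean FPKM, the 6 highest and 6 lowest ratios of each comparison among those with at least 30 fragments over 3 libraries, and all ABA breakdown, receptor and insensitive transcripts with at least 30 fragments, 75 in all. Others named were chosen after their values were seen. The best-match identifiers of the 106 matched 0 entries of the gene table at hand, so that locus names come from the deposited annotation. Alternatives were other handling of zeros, minimum levels, a threshold of 2, the Poisson test, other scalings, sums per best match and, added after seeing the data, omission of group 3 LEA. The computation was tested on simulated data. Python 3.11.15, numpy 2.4.6, pandas 2.3.3, scipy 1.17.1 and matplotlib 3.10.9 were used.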

Additional observations from a re-analysis of the deposited data

How the results depend on the processing

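No paired analysis was possible because each group had 1 library, and for the same reason no library could be left out. With a threshold of 2 on the log2 scale, 1 transcript was higher and 4 lower in tolerant grazed than in tolerant ungrazed plants, and 11 were higher and 7 lower in intolerant grazed than in tolerant grazed plants. With FPKM summed per best protein match, 3 matches were higher and 2 lower with a median log2 ratio of -0.062 in the first comparison, and 14 were higher and 6 lower in the second. Fewer units were counted there by construction. The shares among legume-matched transcripts were not recounted under any of the alternatives. Without the 7 group 3 LEA transcripts, an alternative chosen after seeing the data, the number lower in the first comparison was 3. Under the other alternatives the counts stayed within 1.5 times, with 8 to 16 higher and 9 to 13 lower in the first comparison and 20 to 28 higher and 15 to 24 lower in the second. Of 750 values of the 75 named transcripts under other scalings and other handling of zeros, 649 stayed within the counting interval. A called ratio could not change sign here, since the scalings shift it by at most 0.24 and the handling of zeros keeps its sign. Transcripts under 30 fragments had wide intervals, and 9 of the 106 were of this kind.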

Other observations

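Some contigs fell outside the choice by name but in the same assembly clusters as transcripts described above, and they were picked here with their values known. CL7163.Contig1 has no protein match, and its best nucleotide match is an alfalfa dehydrin messenger RNA. It had 5825 fragments in intolerant grazed, 165 in tolerant grazed and 10 in tolerant ungrazed plants, which is 35.9-fold higher in intolerant grazed than in tolerant grazed plants, with a log2 ratio of 5.16 (4.94 to 5.40), and 16.6-fold higher in tolerant grazed than in tolerant ungrazed plants. Its neighbour CL7163.Contig2 had 211, 153 and 440 fragments. In the cluster of dehydrin b, CL7556.Contig4 had 3621, 47 and 41 fragments in intolerant grazed, tolerant grazed and tolerant ungrazed plants, 78.3-fold higher in intolerant grazed than in tolerant grazed plants, CL7556.Contig2 had 2403, 187 and 178 fragments and CL7556.Contig5 had 527, 35 and 19 fragments. These 3 contigs have no protein match, and their nucleotide matches are genomic clones. CL7746.Contig1, matched to the alfalfa cold-acclimation message BudCAR6, had 8475, 2153 and 1766 fragments in the same libraries, with a log2 ratio between the grazed libraries in the counting interval from 1.93 to 2.07. In all, 9 contigs of the clusters fell outside the choice, and 7 of them had no protein match.

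Of 3 transcripts with the orthology term of an ABA receptor but another protein name, 2 are named MLP-like, after the major latex proteins, which share a fold with the receptors. CL10550.Contig1 had 1834 fragments in intolerant grazed, 1478 in tolerant grazed and 40 in tolerant ungrazed plants, and CL10550.Contig2 had 930, 1704 and 34 fragments. They were 37.2-fold and 50.5-fold higher in tolerant grazed than in tolerant ungrazed plants, with log2 ratios of 5.22 (4.77 to 5.71) and 5.66 (5.17 to 6.19).

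A further 8 transcripts carry the words of the choice without a legume match in both databases. Among them, Unigene53033, a LEA-like transcript with a bamboo nucleotide match, had 0 fragments in intolerant grazed, 11 in tolerant grazed and 475 in tolerant ungrazed plants, and Unigene53011, matched to a barley dehydrin, had 1, 8 and 116 fragments. The alfalfa-matched dehydrins Unigene50218 and Unigene7922, which have no nucleotide match, had 0, 0 and 69 fragments and 0, 7 and 47 fragments in the same libraries. The source organism of these transcripts was not tested.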
